A study of Mus musculus with 16 samples.

Results

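The genes of the TGF-beta and BMP signalling pathways were followed in 2 cell types of the tumour vessel wall, pericytes and endothelial cells, sorted from mammary tumours of mice with and without endosialin. Members were taken by symbol from the array annotation: genes whose symbols start with Tgfb, numbered Bmp genes, Bmpr, Smad, Acvr, Inhb, Ltbp, Gdf and Grem genes, and Id1 to Id4. This gave 42 of the 16537 genes on the deposited table, carried by 75 of its 24040 probes. A filter on dim probes left 36 of the 42 for the tests, among 10426 genes in all. The 6 that did not pass it were Acvrinp1, Bmp6, Bmp7, Gdf15, Gdf9 and Id4. A member that passed only through the group in which it is bright had to differ between groups, so counts of calls and of members whose arrays do not overlap are given over the 36 and over all 42.

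The hosts were female BALB/c mice carrying a ubiquitin-GFP transgene, aged 6 to 8 weeks, either wild type or lacking endosialin (Cd248), a membrane glycoprotein of pericytes and fibroblasts. Every host received 67NR cells, a mouse mammary carcinoma line, in a mammary fat pad, and tumours were taken after 2 to 4 weeks, at an average size of 10 mm across. Pericytes and endothelial cells were sorted from the tumours and their RNA was amplified and hybridised without culture, which gave 4 groups of 4 arrays, 1 for each cell type in each genotype. The labels describe replicates but not whether each is a separate animal, so the p-values reflect the spread between arrays, which may be technical. The gate markers and the tissues that the knockout covers are likewise not given here.

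Ligands of the TGF-beta family bind pairs of type I and type II receptor kinases, which phosphorylate Smad proteins that then enter the nucleus. TGF-beta and activin signal mainly through Smad2 and Smad3, BMPs mainly through Smad1 and Smad5, and endothelial cells also pass TGF-beta family signals to Smad1 and Smad5 through the receptor Acvrl1 (ALK1). Id genes are classic BMP targets, and Tgfbi encodes a matrix protein named for its induction by TGF-beta. In blood vessels the pathways are known for their part in pericyte differentiation, matrix deposition and the stability of the vessel wall.

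All levels are the authors' normalized log2 intensities, on which array medians lay between 7.18 and 7.21 and the lowest value was 6.58. Values close to that floor understate fold differences, and levels of different probes are not set against each other. Cd248 averaged 10.98 ± 0.21 (SD, n = 4) in wild-type pericytes and 7.09 ± 0.10 in knockout pericytes, against 7.04 and 7.27 in wild-type and knockout endothelial cells, so it was high in the 1 group labelled as pericytes with the gene intact. The mean of 12 endothelial markers was 9.28 to 9.44 on the endothelial arrays and 6.94 to 7.23 on the pericyte arrays, and that of 10 pericyte markers was 8.36 to 9.64 on pericyte arrays and 7.71 to 8.01 on endothelial arrays. Of those 10 pericyte markers, 7 were higher and 1 was lower in pericytes in each genotype (limma, adjusted p below 0.05). The pericyte arrays also carried markers of other cells. All 10 fibroblast markers lay above the array median on every pericyte array, with means of 10.20 to 10.81 against 6.83 to 7.0 on endothelial arrays, and their part in the differences between the cell types was not tested. The mean of 6 mast cell markers was 9.17 and 9.87 on wild-type pericyte arrays 3 and 4 and 8.58 to 9.50 on knockout pericyte arrays 2 to 4. On the other 3 pericyte arrays it was 6.97 to 7.46, below the 7.48 to 7.62 of the endothelial arrays. At the same threshold, 3 of the 6 mast cell markers were higher and 1 was lower in pericytes in each genotype. On every endothelial array 2 of the 6 lay above the array median. The mean of 12 keratinocyte markers was 9.76, 9.69 and 9.27 on knockout pericyte arrays 2, 3 and 4, but 7.50 on knockout array 1 and 6.87 to 7.73 on the wild-type pericyte arrays, so results on knockout pericytes are also given without those 3 arrays. In bulk RNA of sorted cells, fewer cells of a type and less RNA per cell cannot be told apart.

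The first question was how the pathway genes were divided between the cell types. In wild-type tumours 5 of the 6 genes that store, process or block ligands and 6 of the 11 receptors were higher in pericytes. Of the ligands, 4 of the 7 tested were higher there, but only 4 of all 11 with no filter. Smad1, Smad5, Bmp4, Acvrl1 and Id1 were higher in endothelial cells. With an adjusted p below 0.05 as the threshold, 17 of the 36 tested members were higher and 5 were lower in wild-type pericytes than in wild-type endothelial cells, in a fit in which 36.2% of all tested genes were called (17.1% higher and 19.1% lower). Over all 42 members with no filter the counts were again 17 higher and 5 lower, where 25.8% of all genes were called (12.7% higher and 13.2% lower). The median log2 difference was 0.31 over the 36 members and 0.17 over the 42, against -0.03 and -0.01 over all genes in the same fits. Of the members called in wild type, 8 differed by 2-fold or more, a count that was not made over all genes. The 4 pericyte arrays did not overlap with the 4 endothelial arrays for 17 higher and 4 lower members, where 33.6% of all tested genes did not overlap (16.3% higher and 17.2% lower). Over all 42 members these counts were 18 and 5, where 27% of all genes did not overlap.

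**Figure D1:**
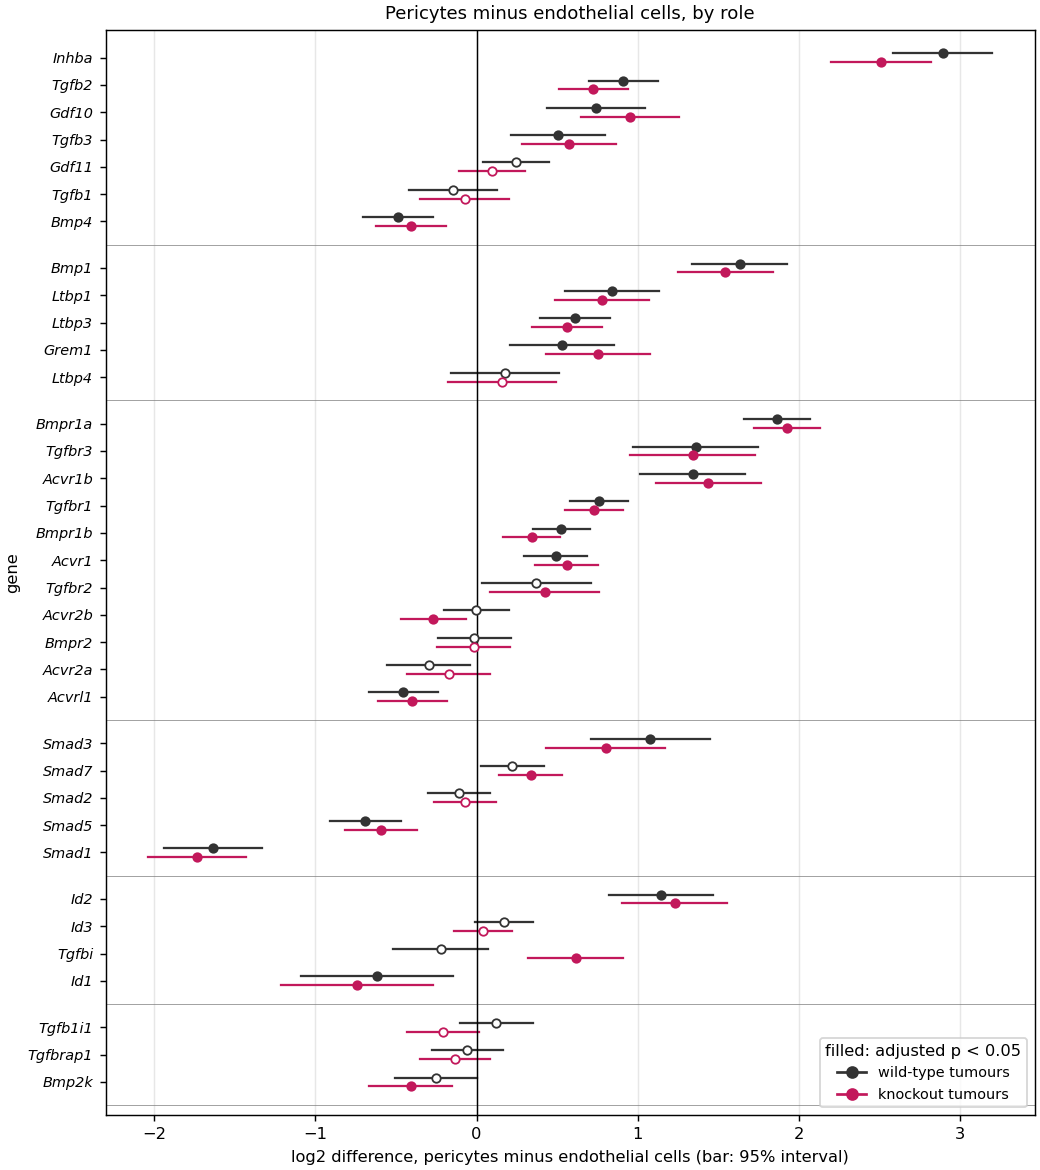
Log2 difference between pericytes and endothelial cells for 35 of the 36 tested members, grouped by role, in wild-type and knockout tumours, with 95% intervals as bars and filled points for an adjusted p below 0.05. Inhba lies farthest to the right at 2.89 in wild type and Smad1 farthest to the left at -1.64. The sign is the same in both genotypes for 34 of the 36 members, a share that was not counted over all genes.

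Among the 11 ligands, 7 were tested, of which 4 were higher and 1 was lower in wild-type pericytes. With no filter, 4 of the 11 were higher and 2 were lower. The median difference was 0.51 over the 7 and 0.06 over the 11. Inhba, the beta A subunit of activin A and of inhibin A, had the widest gap of all members. It read 9.83, 9.83, 9.13 and 10.05 on the wild-type pericyte arrays, 9.61, 9.54, 9.44 and 9.21 on the knockout pericyte arrays, 6.76, 6.76, 6.93 and 6.83 on the wild-type endothelial arrays and 7.11, 6.91, 6.89 and 6.87 on the knockout endothelial arrays. Every pericyte array lay more than 2 log2 units above every endothelial array, and the endothelial values lay below the array medians. The difference was 2.89 ± 0.15 (SE) in wild type, or 7.41-fold (limma, adjusted p = 1.69e-11), and 2.51 in knockout tumours, or 5.68-fold. The TGF-beta isoform Tgfb2 was higher in wild-type pericytes by 0.91 (limma, adjusted p = 8.24e-07), Gdf10, a BMP-related ligand also called BMP3B, by 0.74, and Tgfb3 by 0.51, though the Tgfb3 arrays overlapped. Tgfb1, the isoform best known from platelets and immune cells, differed by -0.15 and did not pass. Gdf11, an activin-type ligand, differed by 0.24 and did not pass either.

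Bmp4, a ligand that endothelial cells are known to make, was the ligand passing the filter that was lower in pericytes. Its values were 6.77, 6.75, 6.80 and 6.70 in wild-type pericytes, 6.76, 6.82, 6.73 and 6.83 in knockout pericytes, 7.41, 7.06, 7.06 and 7.45 in wild-type endothelial cells and 7.26, 7.23, 7.34 and 6.93 in knockout endothelial cells. All pericyte arrays lay below all endothelial arrays, at levels near the floor of the scale. The difference was -0.49 ± 0.10 (SE) in wild type (limma, adjusted p = 0.00106) and -0.40 in knockout tumours. Of the ligands left out by the filter, Bmp6 differed by -0.24 in wild type in the fit with no filter (limma, adjusted p = 0.025), and Bmp7 by 0.29 in knockout tumours (limma, adjusted p = 0.005). The levels of both lay close to the floor, between 6.72 and 7.26 over all 16 arrays.

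All 6 genes that store, process or block ligands were tested, and 5 were higher in wild-type pericytes with none lower. Bmp1, the procollagen C-proteinase that also cleaves the BMP antagonist chordin and latency proteins, had the largest difference of them. It read 11.10, 11.42, 11.42 and 10.68 in wild-type pericytes, 11.23, 11.01, 10.99 and 11.00 in knockout pericytes, 9.46, 9.75, 9.40 and 9.48 in wild-type endothelial cells and 9.65, 9.33, 9.67 and 9.40 in knockout endothelial cells. The groups of cell types did not overlap, and the difference was 1.63 ± 0.14 (SE), or 3.10-fold (limma, adjusted p = 2.73e-08). All 4 of its probes were higher in wild-type pericytes, by 0.97 to 1.63. The latent TGF-beta binding proteins Ltbp1 and Ltbp3, which hold TGF-beta in the matrix, were higher by 0.84 and 0.61, whereas Ltbp4, of the same family, differed by 0.18 and did not pass. For Ltbp1 the call rests on 1 of its 3 probes, since the lowest probe differed by 0.07. The secreted BMP antagonist Grem1 was higher by 0.53 (limma, adjusted p = 0.0107). On endothelial arrays Grem1 lay between 6.84 and 6.97, against 7.02 to 8.14 on the 8 pericyte arrays.

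Of the 11 receptors, all tested, 6 were higher and 1 was lower in wild-type pericytes. Bmpr1a, a type I BMP receptor, was the receptor with the largest difference. It read 8.77, 8.66, 8.52 and 8.65 in wild-type pericytes, 8.83, 8.64, 8.88 and 8.40 in knockout pericytes, 6.71, 6.83, 6.88 and 6.71 in wild-type endothelial cells and 6.75, 6.78, 6.75 and 6.77 in knockout endothelial cells. The endothelial arrays all lay below the array medians and at least 1.5 log2 units under the lowest pericyte array. The difference was 1.86 ± 0.10 (SE), or 3.64-fold (limma, adjusted p = 2.21e-11), and 1.93 in knockout tumours. Its other probe differed by 0.75 and was called in the same direction.

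Tgfbr3, or betaglycan, a coreceptor that presents TGF-beta2 and binds inhibin, followed the same order. Its values were 9.36, 10.01, 9.68 and 8.87 in wild-type pericytes, 9.52, 9.45, 9.32 and 9.60 in knockout pericytes, 8.02, 8.05, 8.38 and 8.04 in wild-type endothelial cells and 8.51, 8.08, 8.06 and 7.87 in knockout endothelial cells. The lowest pericyte array, wild-type array 4, still lay above the highest endothelial array. The difference was 1.36 ± 0.18 (SE), or 2.56-fold, in wild type (limma, adjusted p = 8.79e-06) and 1.34 in knockout tumours. Both of its probes were called, with 0.46 for the other.

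Acvr1b (ALK4), the type I receptor for activin, read 9.45, 9.59, 8.92 and 8.98 in wild-type pericytes, 9.19, 9.26, 9.41 and 8.70 in knockout pericytes, 8.06, 7.66, 7.96 and 7.89 in wild-type endothelial cells and 7.68, 7.65, 7.74 and 7.74 in knockout endothelial cells. The cell types did not overlap, with a difference of 1.34 ± 0.15 (SE), or 2.53-fold (limma, adjusted p = 1.28e-06). The type I TGF-beta receptor Tgfbr1 was higher by 0.76 (limma, adjusted p = 9.08e-07), the BMP receptor Bmpr1b by 0.53 and the BMP and activin receptor Acvr1 (ALK2) by 0.49. The type II receptors did not pass in wild type: Bmpr2 differed by -0.01, Acvr2a by -0.30, Acvr2b by -0.00 and Tgfbr2 by 0.37.

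Acvrl1 (ALK1), the type I receptor that is largely endothelial, was the receptor that was lower in pericytes. It read 7.37, 7.09, 7.21 and 7.25 in wild-type pericytes, 7.27, 7.24, 7.08 and 6.97 in knockout pericytes, 7.70, 7.42, 7.82 and 7.78 in wild-type endothelial cells and 7.53, 7.70, 7.43 and 7.51 in knockout endothelial cells. The arrays did not overlap, although the gap was narrow, and the difference was -0.46 ± 0.10 (SE; limma, adjusted p = 0.00159). Its other probe, which did not pass the filter, differed by 0.02, so this call rests on 1 probe.

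**Figure D2:**
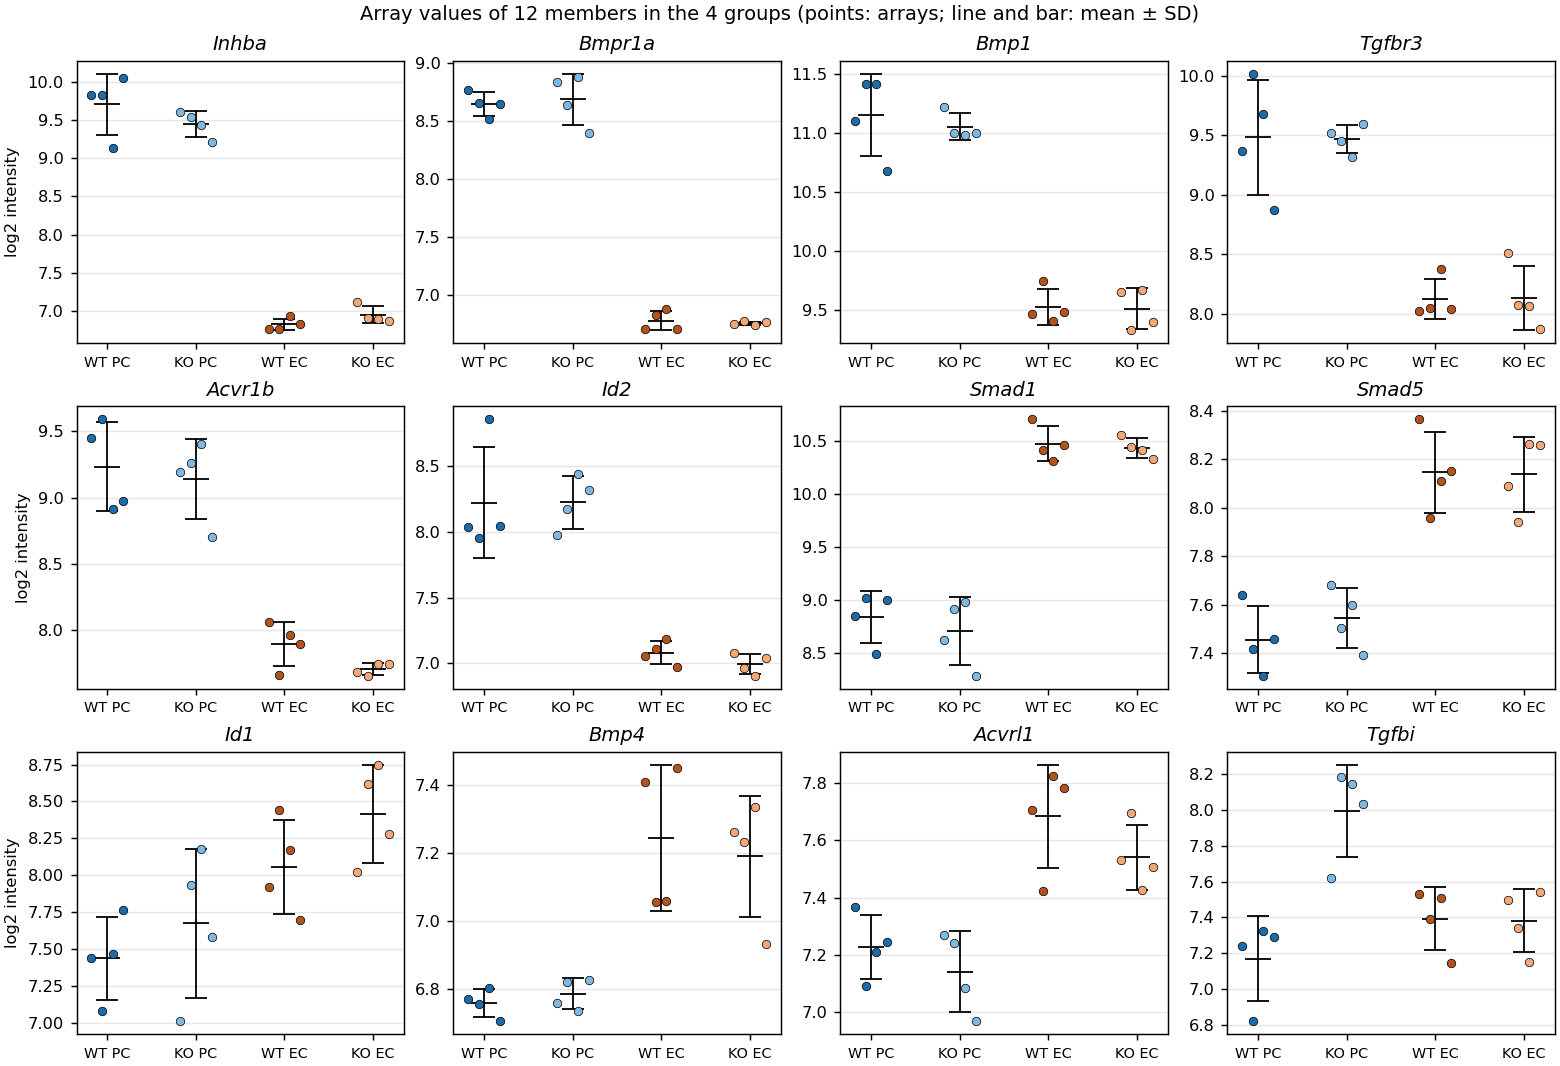
Log2 intensity on each of the 16 arrays for 12 members, with points for arrays and the mean ± SD of each group, where WT and KO stand for wild type and endosialin knockout, PC for pericytes and EC for endothelial cells. Inhba and Bmpr1a lie below the array medians in endothelial cells, Smad1 runs the other way with all endothelial arrays at or above 10.32, and the knockout pericyte arrays of Tgfbi lie at 7.62 to 8.19, above its other groups.

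The 5 Smads were divided: 1 was higher and 2 were lower in wild-type pericytes. Smad1, which carries BMP signals, read 8.85, 9.02, 8.49 and 9.0 in wild-type pericytes, 8.62, 8.92, 8.98 and 8.28 in knockout pericytes, 10.71, 10.42, 10.32 and 10.46 in wild-type endothelial cells and 10.56, 10.44, 10.41 and 10.33 in knockout endothelial cells. Every endothelial array lay more than 1 log2 unit above every pericyte array. The difference was -1.64 ± 0.14 (SE), a 3.11-fold lower level (limma, adjusted p = 3.47e-08). Its 4 probes ranged from -2.06 to -0.11, and 2 of them were called. Smad5, the second BMP Smad on the table, read 7.64, 7.42, 7.31 and 7.46 in wild-type pericytes, 7.68, 7.50, 7.60 and 7.39 in knockout pericytes, 8.36, 7.96, 8.11 and 8.15 in wild-type endothelial cells and 8.09, 7.94, 8.26 and 8.26 in knockout endothelial cells. It was lower in wild-type pericytes by -0.69 ± 0.11 (SE; limma, adjusted p = 3.7e-05) with no overlap.

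Smad3, which carries TGF-beta and activin signals, was higher in wild-type pericytes by 1.08 ± 0.18 (SE), or 2.11-fold (limma, adjusted p = 7.33e-05), and by 0.80 in knockout tumours, and both of its probes were called in wild type. Its partner Smad2 differed by -0.11 and did not pass. The inhibitory Smad7, itself induced by the pathway, differed by 0.22 in wild type (limma, adjusted p = 0.0743) although its arrays did not overlap, and was higher by 0.34 in knockout pericytes than in knockout endothelial cells (limma, adjusted p = 0.0084). Without knockout pericyte arrays 2 to 4 that difference was 0.09 (limma, adjusted p = 0.718).

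The Id genes encode inhibitors of basic helix-loop-helix factors, and they did not move together between the cell types. Id2 read 8.04, 7.95, 8.86 and 8.04 in wild-type pericytes, 7.97, 8.17, 8.44 and 8.32 in knockout pericytes, 7.05, 7.11, 7.18 and 6.97 in wild-type endothelial cells and 7.08, 6.97, 6.90 and 7.04 in knockout endothelial cells. All 8 pericyte arrays lay above all 8 endothelial arrays, and wild-type pericyte array 3 stood above its group. The difference was 1.14 ± 0.15 (SE), or 2.21-fold (limma, adjusted p = 8.45e-06), in wild type and 1.23 in knockout tumours, and both Id2 probes were called. Id1, in contrast, was lower in wild-type pericytes by -0.62 ± 0.22 (SE; limma, adjusted p = 0.038) and in knockout pericytes by -0.74 (limma, adjusted p = 0.0143). Its arrays overlapped, at 7.08 to 7.76 in wild-type pericytes and 7.70 to 8.44 in wild-type endothelial cells, and the wild-type call was lost in the fit with no filter (limma, adjusted p = 0.0621). Id3 differed by 0.17 and did not pass. Id4 did not pass the filter, and in the fit with no filter it was higher in knockout pericytes than in knockout endothelial cells by 0.47 (limma, adjusted p = 0.001), at 6.95 to 7.51 against 6.69 to 6.76.

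Of the members named for a partner in the pathway, 3 of 4 were tested and none passed in wild type. Bmp2k, a kinase induced by BMP2, differed by -0.25, although 2 of its 4 probes, neither kept by the filter, were called lower at -0.22 and -0.15 when every probe was tested. Tgfb1i1 (Hic-5), a focal adhesion protein induced by TGF-beta, differed by 0.12, and Tgfbrap1, a protein that binds TGF-beta receptors, by -0.06. Acvrinp1, an activin receptor interacting protein that RefSeq now lists as Magi2, did not pass the filter.

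The same division was seen in the knockout tumours, with means from arrays that the wild-type comparison does not share. There 20 of the 36 tested members were higher and 7 were lower in pericytes, in a fit in which 35.9% of all tested genes were called (17.4% higher and 18.5% lower), and 21 higher and 7 lower over all 42 members with no filter, where 26.7% of all genes were called (13.4% higher and 13.4% lower). The median log2 difference was 0.38 over the 36 members and 0.31 over the 42, against -0.04 and -0.01 over all genes in the same fits. All 22 members called in wild type (100% of that list) were called in the same direction in knockout tumours, which is 81.5% of the 27 called there. This overlap was not counted over all genes. The pericyte and endothelial arrays of knockout tumours did not overlap for 20 higher and 6 lower members, where 36.6% of all tested genes did not overlap (17.3% higher and 19.4% lower). Over all 42 members they did not overlap for 22 higher and 6 lower members, where 29.6% of all genes did not. The 5 members called in knockout tumours alone were Tgfbi (0.61), Tgfbr2 (0.42), Smad7 (0.34), Bmp2k (-0.41) and Acvr2b (-0.27), and for none of the 36 did the test of the difference between genotypes pass. Without knockout pericyte arrays 2 to 4, which leaves 1 knockout pericyte array whose spread is assumed to equal that of the others, 18 members were called in this comparison. Acvrl1, Bmp4, Ltbp1 and Smad5 were then not called, nor were the 5 members called in knockout tumours alone, of which Tgfbi differed by 0.24 and Smad7 by 0.09. With the keratinocyte mean as a covariate 17 were called, and those 9 members did not pass there either. Tgfbi then differed by 0.05 (limma, adjusted p = 0.918) and Id2 by 0.68 (limma, adjusted p = 0.065). The share of all genes called without those arrays or with the covariate was not counted. The Tgfbr2 call was lost under 17 of 29 alternatives.

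Promoter sequences bear on these genes because Smad complexes bind short DNA boxes. RefSeq promoters of the mouse build GRCm38.p6 were matched for 31 of the 42 members, and the 250 bases before each start site were searched on both strands for GGCGCC, a GC-rich box bound by Smads, and for GTCTAGAC, the palindromic Smad box. Both are their own reverse complement. GGCGCC occurred in 11 of the 31 members and in 10.8% of 27025 genes. Member promoters had a median GC content of 65.4%, against 52.4% over all promoters and 66.8% over those holding the box. GTCTAGAC occurred in 0 of the 31 members and in 0.2% of genes. Bmpr1a and Id2 are shown as the BMP receptor and the Id gene with the largest difference between cell types, and Tgfbi as the member that differed with genotype, with GGCGCC in capitals. Bmpr1a lies on the minus strand at chr14:34502547-34502796, Id2 on the minus strand at chr12:25096093-25096342 and Tgfbi on the plus strand at chr13:56609336-56609585.
Bmpr1a: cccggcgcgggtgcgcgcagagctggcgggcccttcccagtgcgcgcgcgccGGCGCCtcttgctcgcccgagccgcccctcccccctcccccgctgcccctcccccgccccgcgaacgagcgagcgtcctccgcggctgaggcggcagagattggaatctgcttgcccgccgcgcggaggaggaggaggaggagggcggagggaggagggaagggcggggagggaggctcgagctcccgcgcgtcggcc
Id2: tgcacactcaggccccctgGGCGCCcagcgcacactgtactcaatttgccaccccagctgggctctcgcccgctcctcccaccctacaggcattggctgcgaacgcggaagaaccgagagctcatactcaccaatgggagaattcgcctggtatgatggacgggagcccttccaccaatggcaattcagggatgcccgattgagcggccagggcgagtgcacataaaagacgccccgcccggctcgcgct
Tgfbi: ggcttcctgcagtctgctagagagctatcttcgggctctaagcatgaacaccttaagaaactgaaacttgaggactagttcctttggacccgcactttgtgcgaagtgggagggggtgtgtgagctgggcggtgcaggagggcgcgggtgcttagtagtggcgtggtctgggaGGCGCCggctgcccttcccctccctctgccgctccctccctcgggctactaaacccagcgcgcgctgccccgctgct
A match describes the letters in these windows and is not evidence of binding. The 3 promoters carry the box once each, upstream of 2 genes that were higher in pericytes of both genotypes and of 1 that was not. Inhba, Smad1, Acvr1b and Smad3 also differed by 2-fold or more between the cell types in wild type, and their promoters held 0 copies.

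The second question was what the loss of endosialin changed in pericytes. Of the 36 tested members, 1 rose in knockout pericytes, Tgfbi, and none fell, where 0.317% of all tested genes were called (0.307% higher and 0.00959% lower). Tgfbi read 7.24, 6.82, 7.33 and 7.29 on the wild-type pericyte arrays and 7.62, 8.19, 8.14 and 8.03 on the knockout pericyte arrays, with 7.53, 7.39, 7.51 and 7.15 in wild-type and 7.50, 7.34, 7.15 and 7.54 in knockout endothelial cells. The 4 knockout pericyte arrays lay above all 12 others, array 1 by the least. The mean rose from 7.17 ± 0.24 to 8.00 ± 0.26 (SD, n = 4 each), a difference of 0.83 with a 95% interval of 0.53 to 1.12 (limma, adjusted p = 0.014). Arrays of the genotypes did not overlap for this 1 member of the 36, where 3.01% of all tested genes did not overlap, and for the same 1 of all 42, where 3.19% of all genes did not. With no filter Tgfbi was again the 1 member called of 42 (limma, adjusted p = 0.0337), where 0.0847% of all genes were called, and 4 members had an unadjusted p below 0.05. Its other probe, which did not pass the filter, differed by 0.35 (limma, adjusted p = 0.171).

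Markers of other cells were high on the same arrays as Tgfbi. Of the 12 keratinocyte markers, 11 rose in knockout pericytes, with a median log2 difference of 1.72. The mean of 4 macrophage and granulocyte markers was 7.58, 7.52 and 7.81 on knockout arrays 2 to 4, against 6.79 on array 1 and at most 7.05 in wild type, and that of 5 tumour epithelial markers was 7.81, 7.85 and 8.64, against 7.13 on array 1 and at most 7.68 in wild type. Of those lists 1 and 3 genes were tested and none was called. Over the 8 pericyte arrays, deviations of Tgfbi from its group means had a correlation of 0.85 with those of the keratinocyte mean. Array 1 was the lowest knockout array for both Tgfbi and the keratinocyte mean, and its weight in the correlation was not tested. With that mean as a covariate the difference in Tgfbi was 0.34 ± 0.19 (SE; limma, adjusted p = 1.00). Without knockout arrays 2 to 4 it was 0.45 (limma, adjusted p = 1.00), on knockout array 1 alone, where the keratinocyte mean was 7.50. In a fit to the 8 pericyte arrays, its adjusted p was 0.437 (limma). Its call was also lost without wild-type pericyte array 2 (0.71; limma, adjusted p = 0.0565), knockout array 2 (0.76; limma, adjusted p = 0.0803) or knockout array 3 (0.78; limma, adjusted p = 0.0782). The keratinocyte mean was 9.27 to 9.76 on knockout arrays 2 to 4 and 6.87 to 7.73 on the wild-type pericyte arrays. The covariate therefore overlaps with genotype, and their parts in the Tgfbi difference cannot be cleanly told apart. The part of the macrophage, granulocyte and tumour epithelial signal in that difference was not tested.

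**Figure D3:**
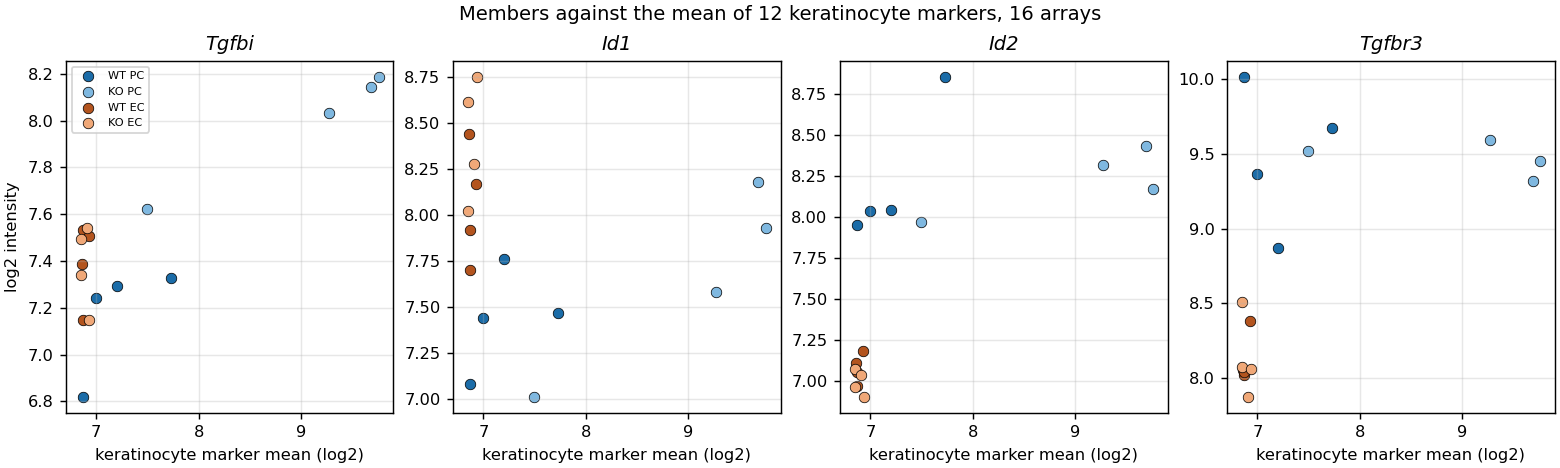
Log2 intensity of Tgfbi, Id1, Id2 and Tgfbr3 against the mean log2 intensity of 12 keratinocyte markers on each of the 16 arrays, coloured by group (WT wild type, KO knockout, PC pericytes, EC endothelial cells). Knockout pericyte arrays 2 to 4 stand apart on the horizontal axis at 9.27 to 9.76, where Tgfbi lies at 8.03 to 8.19.

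Id1 shared part of that pattern, with a correlation of 0.84 between its deviations and those of the keratinocyte mean over the same 8 arrays. It read 7.01 on knockout pericyte array 1 and 7.93, 8.18 and 7.58 on arrays 2 to 4. The mean of Id1 in pericytes was 7.44 ± 0.28 (wild type) and 7.68 ± 0.51 (knockout), a difference of 0.24 that did not pass and that was -0.57 with the keratinocyte covariate, which did not pass either. The correlation was 0.61 for Id2, 0.52 for Smad7, -0.69 for Grem1 and -0.73 for Tgfb1i1. These values describe 8 arrays that share 1 set of markers, and carry no test.

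The other 35 members differed between knockout and wild-type pericytes by -0.26 to 0.28, and none passed. For 31 of the 36 the 95% interval lay within 0.5 log2 units of 0, and for 35 within 1 unit. The 5 with wider limits were Grem1, Id1, Inhba, Smad3 and Tgfbi. After Tgfbi the smallest unadjusted p values belonged to Acvr2b, a type II activin receptor, at -0.20 (limma, adjusted p = 0.695) and Grem1 at 0.28 (limma, adjusted p = 0.78). Of the other marker genes of the set, Tgfbr3 differed by -0.01, with a 95% interval of -0.40 to 0.38, and Id2 by 0.00, with -0.32 to 0.33. Of all 36, 2 had an unadjusted p below 0.05. Neither this count nor the others at that unadjusted threshold were made over all genes.

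In endothelial cells 0 of the 36 members were called between knockout and wild type, and 0 had an unadjusted limma p below 0.05, where 0.00959% of all tested genes were called. Over all 42 members with no filter both counts were again 0, where 0.00605% of all genes were called. Differences ran from -0.19 to 0.36. The smallest p values belonged to Id1 at 0.36 (95% interval -0.11 to 0.83), Tgfb1i1 at 0.16 and Acvrl1 at -0.14. The 95% interval lay within 0.5 log2 units of 0 for 34 members and within 1 unit for all 36, the 2 wider ones being Acvr1b and Id1. For Tgfbi the difference was -0.01.

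**Figure D4:**
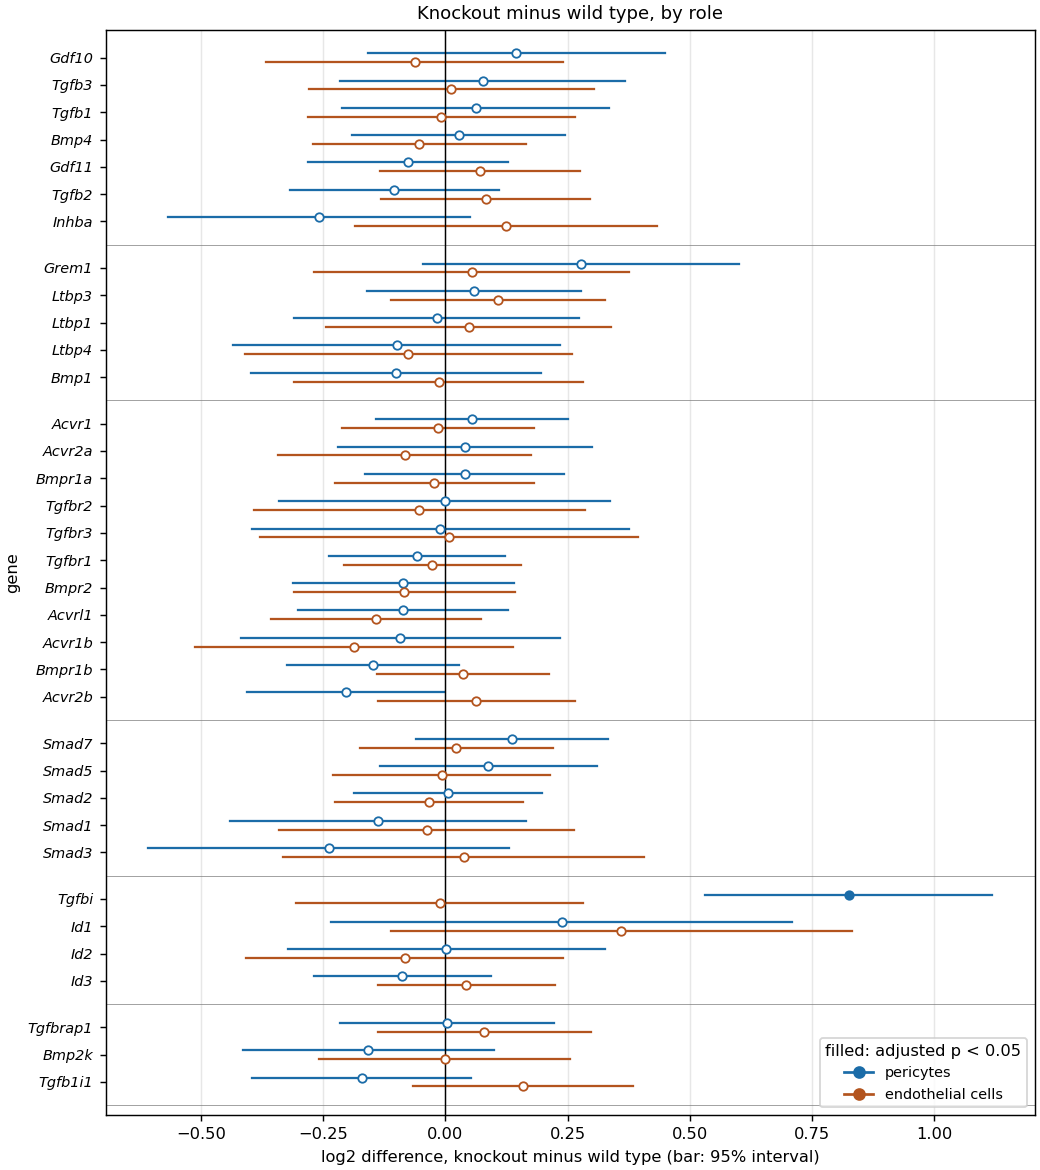
Log2 difference between knockout and wild type for 35 of the 36 tested members, grouped by role, in pericytes and in endothelial cells, with 95% intervals as bars. Tgfbi in pericytes, at 0.83, carries the filled point for an adjusted p below 0.05, and the other pericyte values lie between -0.26 and 0.28.

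The difference of the knockout effects between the cell types was called for 0 of the 36 members by limma, where 0.0192% of all tested genes were called, and 2 members had an unadjusted p below 0.05. With no filter it was called for 0 of 42, where 0.00605% of all genes were called, and 5 had an unadjusted p below 0.05. Tgfbi had the largest value, 0.84 ± 0.20 (SE; limma, adjusted p = 0.534), so its response was not shown to differ between the cell types. The next smallest p values belonged to Tgfb1i1 at -0.33 and Acvr2b at -0.27. Leaving out knockout pericyte array 1 brought Tgfbi to 0.96 (limma, adjusted p = 0.0126). That fit keeps only knockout pericyte arrays 2 to 4, on which the keratinocyte mean was 9.27 to 9.76.

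Pathway genes that the symbols do not catch were followed through 4 lists, in the fits in which 36.2% of all tested genes and, with no filter, 25.8% of all genes were called. Of 24 ligand regulators and antagonists, 11 were tested, and 8 were higher and 1 was lower in wild-type pericytes, with a median difference of 1.30 against -0.03 over all tested genes. With no filter, 10 of 17 were higher and 1 was lower. The small proteoglycans Dcn and Bgn, which bind TGF-beta in the matrix, were higher by 4.32 and 4.16, and the microfibril protein Fbn1, to which latency proteins attach, by 3.46. Crim1, a membrane protein that binds BMPs and is known from endothelium, was lower by -1.83. Of 22 receptor partners and intracellular regulators, 15 were tested, with 4 higher and 3 lower and a median of 0.02, and with no filter 4 of 17 were higher and 4 lower. Cd109 and Eng (endoglin), both coreceptors, were lower by -1.10 and -0.87, as was the receptor-binding immunophilin Fkbp1a by -1.02, while the feedback inhibitor Pmepa1 was higher by 0.81.

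Of 20 genes known to respond to TGF-beta, 18 were tested, and 13 were higher and 1 was lower in wild-type pericytes, with a median of 0.44, and with no filter the same counts of 19. The collagens Col3a1, Col1a1 and Col1a2 led with 5.08, 4.09 and 3.69, followed by the matrix protein Postn at 3.08. These collagens, and Dcn, also stand on the list of fibroblast markers, and their part in the counts was not tested. Skil, Pmepa1 and Tgif1 are listed both as TGF-beta response genes and as receptor partners or intracellular regulators, so the lists are not separate. Of 13 genes known to respond to BMPs 5 were tested, with 2 higher, the transcription factors Prrx2 (1.20) and Runx2 (1.19), and 1 lower, the Notch and BMP target Hey1 (-1.17). With no filter 2 of 10 were higher and 1 was lower. Bambi is listed both as a BMP response gene and among the receptor partners. In knockout tumours the counts were 8 higher and 1 lower for the ligand regulators, 4 and 3 for the receptor partners, 11 and 0 for the TGF-beta response and 2 and 1 for the BMP response. None of the genes on these 4 lists was called by limma between knockout and wild type in either cell type. Among tested genes, an unadjusted limma p below 0.05 was found for 1 in pericytes and 1 in endothelial cells, both on the TGF-beta response list. With no filter there were 1 ligand regulator, 1 TGF-beta response gene and 2 BMP response genes in pericytes. In endothelial cells there was 1, on the TGF-beta response list.

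**Figure D5:**
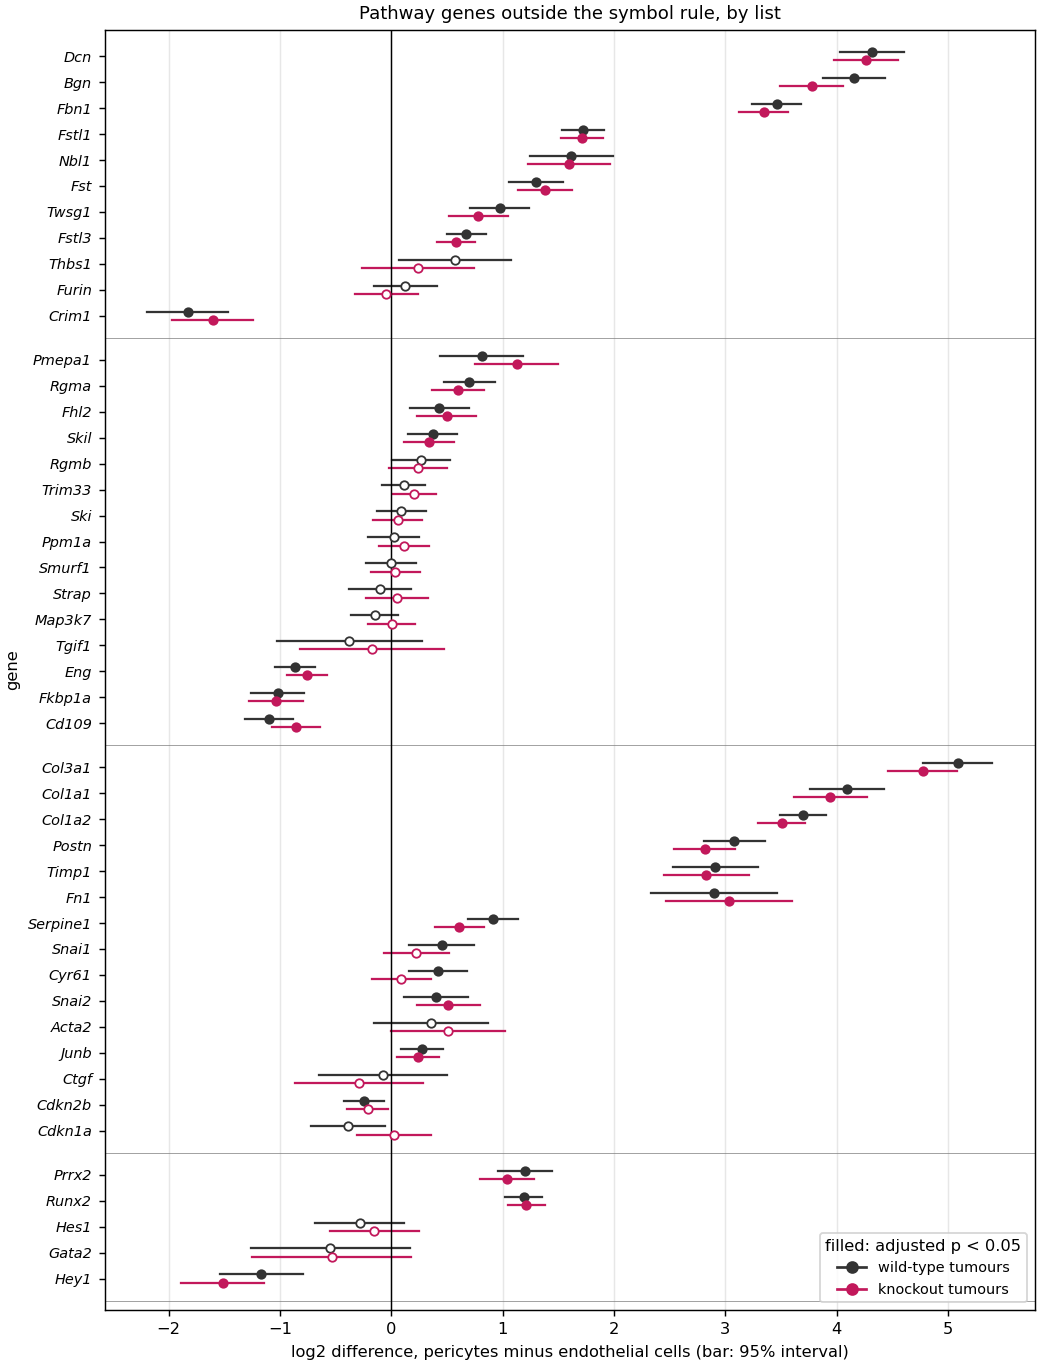
Log2 difference between pericytes and endothelial cells for tested pathway genes outside the symbol rule, grouped by list, in wild-type and knockout tumours, with 95% intervals as bars and filled points for an adjusted p below 0.05. Collagens and small proteoglycans reach 3.69 to 5.08 in wild type, and Crim1 at -1.83 lies farthest to the left.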

How the data were processed

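The authors deposited normalized log2 intensities of Illumina MouseWG-6 v2 bead arrays, which the submitters' processing notes tie to GenomeStudio and lumi. For tool versions, background correction, transform and scaling between arrays, the sources used here give nothing. The values were used as deposited, and 0 columns belonged to samples outside the series. Depth has no counterpart on arrays, and their number, 4 a group, bounds the precision.

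The filter kept a probe that lay above its array's median on at least 4 of 16 arrays, and the kept probe of highest overall mean stood for its gene. A group-means model on all 16 arrays was fitted with limma 3.58.1 in R 4.3.3 (12 residual and 5.58 prior degrees of freedom), with 5 contrasts, two-sided moderated tests and Benjamini-Hochberg adjustment over the 10426 tested genes at 0.05. The script was checked on simulated data.

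The members, the lists and the rule for named genes were chosen with earlier results of these data known. The rule named every member past the threshold in any contrast, the 3 members with the smallest p in each knockout contrast and in the difference of effects, and up to 4 genes of each further list with the largest called difference in wild type. It gave array values for Tgfbi, Tgfbr3, Id2 and the 5 called members with the largest difference in each direction whose arrays did not overlap in wild type, of which 4 existed among the lower. Values of Id1, of members that did not pass and of further probes were added after they were seen. Symbols are those of the array annotation, and 41 members matched RefSeq by accession and 1 by symbol. Replicate numbers were not taken as pairs. Alternatives were another filter, other probes for a gene, other variance models and weights, a keratinocyte covariate, the replicate number as a block, another scaling, the arrays of the compared groups alone and the removal of arrays. Values of 1 member are not reported here.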

Additional observations from a re-analysis of the deposited data

Results flagged for a closer look

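Cd248, the deleted gene, is the 1 gene checked here whose knockout effect differed between the cell types by the test of the difference itself, with -4.12 between pericytes and endothelial cells.

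Within groups of 4 arrays, 11 of 112 combinations of a named member and a group held an array that stood apart from the other 3 by Dixon's 95% criterion, which chance meets in about 1 of 20 groups. On knockout pericyte array 1, Bmp1 (11.23) and Bmpr1b (7.30) were the highest of their group and Ltbp1 (7.50) was the lowest. On knockout endothelial array 1, Inhba (7.11) and Tgfb1i1 (7.75) were the highest. Bmp2k was high on wild-type pericyte array 2 (7.78) and on knockout endothelial array 3 (7.93). Tgfbi was low on wild-type pericyte array 2, at 6.82 where the nearest array read 7.24. Id2 was high on wild-type pericyte array 3 (8.86) and Tgfbr3 on wild-type endothelial array 3 (8.38). Tgfb2 was low on wild-type endothelial array 2 (6.98).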

How the results depend on the processing

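None of the 58 differences of single members recomputed under the alternatives changed direction. Among the 36 members, 12 changed sign in the knockout comparison of pericytes with the keratinocyte covariate, Id1 from 0.24 to -0.57 among them, and none of the 12 passed in either fit. The count of members called between wild-type pericytes and endothelial cells was 13 of the 16 members that a stricter filter kept, 22 with the replicate number as a block and 21 to 23 with 1 array left out in turn. Of the 22 calls, 21 were kept under every alternative that tested the gene, the exception being Id1. In knockout tumours the count was 14 of 16 with the stricter filter, 17 with the keratinocyte covariate, 18 without knockout pericyte arrays 2 to 4, 26 with the replicate block and 23 to 27 with 1 array left out, and 16 of the 27 calls were kept throughout. In knockout pericytes the count of 1, Tgfbi, became 0 under the stricter filter (which did not keep Tgfbi), in the pericyte arrays alone, with the covariate and without arrays 2 to 4, and lay between 0 and 1 with 1 array left out. It was 0 in endothelial cells throughout, and between 0 and 1 for the difference of effects. The share of all genes called was counted for the fit with no filter and for none of the other alternatives. The cause of the other changes was not tested. Replicate numbers were not treated as pairs. Of 24 same-numbered pairs, taken within and across genotypes, 9 had a correlation of deviations above 0.1, over a range of -0.18 to 0.45, and 14 correlated best with their own number. Between pericytes and endothelial cells of 1 genotype, 7 of 8 did so, with 5 above 0.1 and a range of 0.03 to 0.43, a hint from the data and not from the labels. The replicate block joins each number across all 4 groups, so a pairing of the cell types within 1 genotype was not modelled. With the replicate block the adjusted p of Tgfbi in pericytes was 0.0271 (limma), and Tgfbr2 in knockout tumours was the call that was lost. Signal over background limits the dim members, since no detection calls were used.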

Other observations

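Id4 and Bmp7, which did not pass the filter, lay near the floor in wild-type pericytes and higher on some knockout pericyte arrays. Id4 read 7.06, 6.86, 6.78 and 6.97 on the wild-type and 6.95, 7.51, 7.23 and 7.09 on the knockout pericyte arrays, a difference of 0.28 in the fit with no filter (limma, adjusted p = 0.373). Bmp7 read 6.83, 6.75, 6.89 and 6.74 on the wild-type and 6.86, 7.19, 7.18 and 6.96 on the knockout arrays, a difference of 0.25 (limma, adjusted p = 0.239). For both genes the groups overlapped, and the highest values stood on knockout arrays 2 and 3. After the keratinocyte mean was added as a covariate, the differences between knockout and wild-type pericytes were 0.82 for Grem1, -0.57 for Id1 and -0.47 for Id2, and none of the 36 tested members passed.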
